A study of Mus musculus with 12 samples.

Results

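Control mouse zygotes were profiled by 2 routes in this study, and 4 of its 12 libraries hold them without tagged LSM1 and without immunoprecipitation. The 2 Ctrl RNA-seq libraries came from zygotes injected with Lsm1 scramble siRNA, a short RNA with no intended target that controls for Lsm1 knockdown. The 2 Ctrl Input libraries came from the RNA-binding protein immunoprecipitation (RIP) arm, as the part of the control lysate that was kept before the pull-down. They were taken by their names, the scramble siRNA libraries carrying WT and the input libraries carrying IgG and Input.

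Per the labels, zygotes in all groups were B6D2F1, from superovulated females of 8 to 10 weeks, and were collected 18 to 20 hours after human chorionic gonadotropin. The paper's methods give a younger age range for the females. The treatment label of Ctrl Input is untagged Lsm1 mRNA, and the paper likewise gives zygotes injected with Lsm1 mRNA as the negative controls of RIP. The title of the same libraries names IgG. Lsm1 stood at 14.3 CPM (estimated counts scaled to a common library size and normalised for composition) in both Ctrl Input libraries and at 167 and 170 CPM in the Ctrl RNA-seq libraries. Before normalisation it stood at 9930 and 14700 CPM in the 2 FLAG Input libraries, from zygotes injected with FLAG-tagged Lsm1 mRNA. The Ctrl Input libraries therefore held no excess of Lsm1 RNA, and what was injected into those zygotes is uncertain.

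The routes also differed in preparation. Per the labels, RNA-seq libraries were made with a KAPA stranded kit that removes ribosomal RNA, and RIP libraries with the SMARTer Stranded Total RNA-Seq kit. The paper's methods instead describe reverse transcription and amplification from a few embryos per RNA-seq replicate, against a large pool of zygotes for RIP. Elsewhere the paper calls the RNA-seq of the knockdown zygotes and their controls total RNA-seq. Whether the RNA-seq embryos were injected as oocytes or as zygotes differs between sources. In the paper's knockdown scheme oocytes were injected, then matured and fertilised in vitro. Its RIP zygotes were injected after fertilisation. Kit, number of embryos, injected RNA, stage of injection, maturation and fertilisation in vitro, and batch cannot be told apart here. Each difference below is therefore one between routes and not an effect of a treatment. Fewer cells of a type and less RNA per cell cannot be told apart either.

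Depth was 13968315 and 7391089 estimated counts in Ctrl RNA-seq and 31586450 and 25612092 in Ctrl Input. Replicates of a route correlated more closely (Pearson r of 0.967 for Ctrl RNA-seq and 0.996 for Ctrl Input, across features, which are not independent) than libraries of different routes (0.857 to 0.871). Zygote and oocyte markers were present throughout: 12 of 12 had counts in each of the 4 libraries, with a summed level of 13500 and 15500 raw CPM in Ctrl RNA-seq and 9190 and 8450 raw CPM in Ctrl Input. Of 25092 genes and repeats, 13556 passed the filter on low counts, and edgeR's quasi-likelihood test called 2395 of them higher in Ctrl RNA-seq (17.7%) and 2895 lower (21.4%), at a log2 fold change beyond 1 and an adjusted p under 0.05. Without Ctrl Input replicate 1 or 2 the lower calls were 1615 of 13470 and 1567 of 13672, so counts of lower members given below without an input library are to be read against these. With limma on log2(TPM + 1) 60.9% of the calls were higher ones, against 45.3% here. The 17.7% and 21.4% are the background for each group below, whose median is to be read against a median of -0.10 over all 13556. Of the 13556, 355 had 0 counts in both Ctrl RNA-seq libraries and 8 in both Ctrl Input libraries. Such features passed the filter through the other route alone, which fixed their direction. The background of lower calls is therefore itself raised by any of the 355 that were called. With 2 libraries a side, an exact permutation test of a single gene cannot go below p = 0.333, and although the paper calls the replicates biologically independent, the labels do not say how they were separated, and the p-values measure only the spread between these libraries.

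A zygote starts out with RNA that the oocyte made and stored. Its messages wait with short poly(A) tails and are lengthened, translated or destroyed in turn, and transcription from the new genome starts weakly in the late zygote before the major wave of the next cell cycle. Some RNAs usually lack a poly(A) tail. Most messages of the replication-dependent histones end in a stem-loop that is bound by SLBP. Small nucleolar RNAs (snoRNAs) and small nuclear RNAs (snRNAs) are short structured RNAs.

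The sequences that mark these classes are shown first, from the RefSeq transcripts placed on GRCm38.p6 and read 5′ to 3′ on the strand of the gene. The 3′ ends of histone messages are shown for the genes whose values are given below, with the stem-loop in capitals. H2bc4 has a second, downstream end, shown with its poly(A) signal in capitals.
H2ac18, chr3:96246027-96246052 (+): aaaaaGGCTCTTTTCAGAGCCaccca
H3c15, chr3:96238480-96238505 (-): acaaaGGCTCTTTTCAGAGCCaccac
H1f1, chr13:23764387-23764412 (+): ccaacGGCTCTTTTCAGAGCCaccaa
H2ac10, chr13:23534354-23534378 (+): ccaaaGGCTCTTTTCAGAGCCacca
H2bc4 stem-loop end, chr13:23684642-23684667 (+): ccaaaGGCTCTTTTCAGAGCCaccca
H2bc4 poly(A) signal end, chr13:23692458-23692480 (+): atatAATAAAtgtcatgtaaagc
The small RNAs are a C/D box snoRNA, with its box C (TGATGA) and box D (CTGA) in capitals, and the U12 snRNA of the minor spliceosome.
Snord15b, chr7:99479563-99479707 (-): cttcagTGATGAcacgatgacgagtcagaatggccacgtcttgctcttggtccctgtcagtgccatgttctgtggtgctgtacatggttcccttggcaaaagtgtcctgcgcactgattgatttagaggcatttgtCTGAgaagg
Rnu12, chr15:83149645-83149794 (+): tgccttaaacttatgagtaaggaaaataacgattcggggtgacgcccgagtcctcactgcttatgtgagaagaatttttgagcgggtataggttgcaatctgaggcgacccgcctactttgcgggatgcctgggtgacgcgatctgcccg

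Histone messages were low in Ctrl RNA-seq. Summed over the 66 replication-dependent histone genes listed, they stood at 113 and 125 raw CPM in Ctrl RNA-seq and at 3640 and 3260 raw CPM in Ctrl Input. Of 46 histone genes tested, 42 were lower in Ctrl RNA-seq and 1 was higher. Of the 46, 14 had 0 counts in both Ctrl RNA-seq libraries and passed the filter through Ctrl Input alone. These could come out in 1 direction only. Of the other 32, 28 were lower. Some of the 32 were also near 0 in Ctrl RNA-seq, such as H3c15 with 3 and 6 counts, and passed through Ctrl Input alone. Their direction was fixed too, and their number was not counted. The median was -6.05 on the log2 scale, or -4.11 when genes at 0 in one route are set to their bound. Without Ctrl Input replicate 1 or 2 the number lower was 28 or 29.

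H2ac18, a core histone H2A gene, stood at 11.3 and 2.87 CPM in Ctrl RNA-seq and at 1108 and 1093 CPM in Ctrl Input. Each RNA-seq library was far below each input library, and the log2 fold change was -7.15 (SE 0.538, edgeR adjusted p = 0.000459). H3c15, which encodes histone H3, stood at 0.235 and 0.956 CPM against 197.5 and 173 CPM, without overlap (log2 fold change -8.57, SE 0.392, edgeR adjusted p = 0.000337). H1f1, a linker histone gene, kept more of its signal, at 36.5 and 30.8 CPM against 787.5 and 687 CPM (log2 fold change -4.45, SE 0.173, edgeR adjusted p = 0.000337). Copies of histone genes resemble each other, and 30 of the 46 shared over 50% of their 31-base words with other genes (96.2% for H2ac18 with H2ac19, 100% for H3c15 with H3c14, 0.28% for H1f1), so reads may be split between copies and the sum over the list is the firmer value.

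A match to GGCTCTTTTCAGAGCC with up to 2 mismatches in the last 100 bases, on the transcript's own strand, was present in 59 of 71 histone transcripts (83.1%), against 62 of 37039 transcripts in all (0.167%). The letters searched were the commonest perfect stem in the ends of these same histone transcripts. Their high share there therefore follows from the choice and serves only to sort the genes. A poly(A) signal (AATAAA or ATTAAA in the last 50 bases) was present in 9.86% of histone transcripts and 72.8% of all transcripts. Among tested histone genes, 37 had the stem-loop and no transcript with a poly(A) signal: 36 of them were lower and 1 higher (median -6.35, or -4.45 with genes at 0 set to their bound). The 4 genes annotated with transcripts of both kinds had a median of -2.10 and differed among themselves. In this small group H2bc4 (-2.35) and H2bc6 (-7.27) were lower, while H2bc22 (-1.85) and H2bc23 (0.53) did not pass the test. The poly(A) end of H2bc22 had 0 counts in each Ctrl library. That of H2bc6 had 10 and 3 of 30 and 27 counts in Ctrl Input and 0 in Ctrl RNA-seq. The median of the 4 therefore cannot be read as that of genes using a poly(A) end. The other 5 genes were H3c6, with a poly(A) signal only (-7.62), and H4c1, H4c2, H4c9 and H4c14, with neither feature in the windows searched at this number of mismatches; H4c1, H4c2 and H4c9 were lower and H4c14 (0.45) did not pass.

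H2bc4 shows both ends within 1 gene. Its transcript that ends at the stem-loop stood at 0 and 0.812 raw CPM in Ctrl RNA-seq and at 31.8 and 22.5 raw CPM in Ctrl Input. Its transcript that ends at the poly(A) signal stood at 6.3 and 8.12 raw CPM in Ctrl RNA-seq and at 22 and 22.5 raw CPM in Ctrl Input. The poly(A) end thus took 100% and 90.9% of the gene's counts in Ctrl RNA-seq and 40.9% and 50.1% in Ctrl Input, with no overlap between routes. The other set of libraries had the same order, with 80% and 100% in Lsm1_KD RNA-seq, from zygotes injected with Lsm1 siRNA, and 47.6% and 34.8% in FLAG Input. These counts are Salmon's estimates for overlapping transcripts of 1 gene and were not tested.

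**Figure D1:**
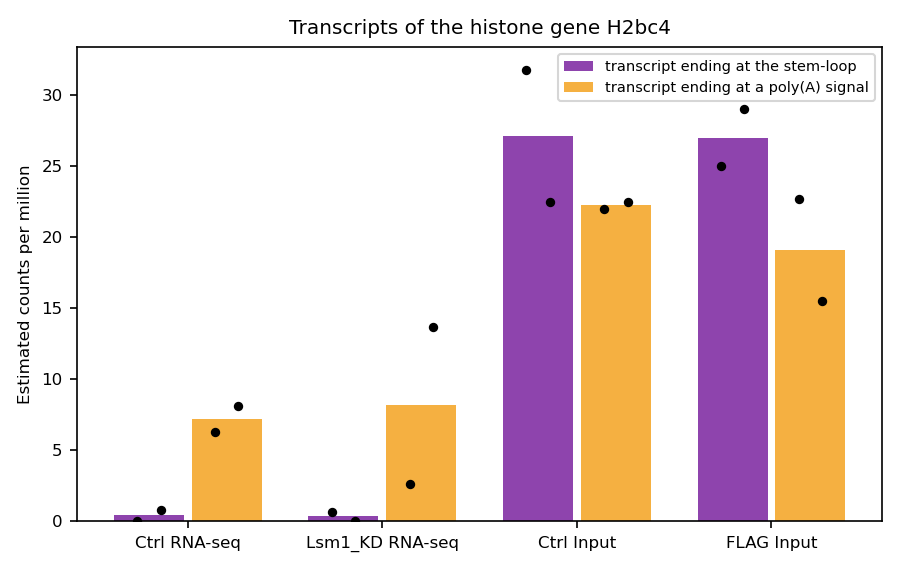
Raw CPM (y axis, from 0) of 2 H2bc4 transcripts in 4 groups of 2 libraries; bars are means, points are libraries, purple marks the transcript ending at the stem-loop and orange the one ending at a poly(A) signal. The stem-loop transcript was at 0 to 0.812 CPM in the RNA-seq libraries and at 22.5 to 31.8 CPM in the input libraries.

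H2ac10 was the 1 histone gene that went the other way. It stood at 39.9 and 78.4 CPM in Ctrl RNA-seq and at 0.666 and 0.832 CPM in Ctrl Input (log2 fold change 6.29, SE 0.454, edgeR adjusted p = 0.000428). Its end carries the stem-loop printed above and no poly(A) signal. It shared 67.7% of its 31-base words with other genes, and how reads were split between those copies was not tested.

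Small structured RNAs were also low in Ctrl RNA-seq. snoRNAs, which guide chemical modification of ribosomal RNA, summed to 5.51 and 9.34 raw CPM in Ctrl RNA-seq and to 323 and 195 raw CPM in Ctrl Input. Of 46 snoRNAs tested among 110 listed, 42 were lower and 0 higher by edgeR, with 44 and 0 at an unadjusted p under 0.05 and a median of -7.09 (-3.93 with those at 0 set to their bound). Of the 46, 25 had 0 counts in both Ctrl RNA-seq libraries and passed the filter through Ctrl Input alone, which fixed their direction. Of the other 21, 17 were lower. Some of the 21 were also near 0 in Ctrl RNA-seq, such as Snord17 with 1 count in each library, and passed through Ctrl Input alone. Their direction was fixed too, and their number was not counted. The count of lower snoRNAs was 14 without Ctrl Input replicate 1, 22 without replicate 2, and 16 when the trend with transcript length was taken out.

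Box C/D snoRNAs, which guide ribose methylation, gave 26 lower of 27 tested, and box H/ACA snoRNAs, which guide pseudouridylation, gave 16 lower of 19. Their medians were -7.51 and -5.44 as fitted, but -3.82 and -4.03 with members at 0 set to their bound (18 of 27 and 7 of 19), so no order between the classes can be read. Box D letters (CTGA, near the 3′ end) were present in 27 of the 27 C/D members and 3 of the 19 H/ACA members, and box C letters (TGATGA, near the 5′ end) in 13 and 0. Snord15b, printed above, had 0 counts in both Ctrl RNA-seq libraries and 20.4 and 14.8 CPM in Ctrl Input, and was at least 114-fold lower in Ctrl RNA-seq, taking 3 counts over the group as the floor. Snora47 was among the few with signal in each library, at 1.57 and 3.82 CPM against 50.9 and 37.4 CPM (log2 fold change -4.14, SE 0.446, edgeR adjusted p = 0.00115); it lies within Zbed3 on the same strand, which did not pass the test (0.05).

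Spliceosomal and Cajal body RNAs followed the same direction, with 9 of 9 tested lower among 13 listed (4 of them at 0 counts in both Ctrl RNA-seq libraries) and summed levels of 1.79 and 2.71 raw CPM against 80 and 77 raw CPM; 4 were still called without Ctrl Input replicate 1 and 5 without replicate 2. Rnu12 had 0 counts in both Ctrl RNA-seq libraries against 18.4 and 25.4 CPM in Ctrl Input, at least 137-fold lower. Rnu11, the U11 snRNA that acts with it in the minor spliceosome, stood at 0.157 and 0 CPM against 12 and 8.36 CPM (log2 fold change -6.56, SE 0.736, edgeR adjusted p = 0.00133). Rnu11 likewise passed the filter through Ctrl Input alone.

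Of 8 other structured RNAs listed, 3 passed the filter and were lower. All 3 were at or near 0 in Ctrl RNA-seq and passed through Ctrl Input alone, which fixed their direction. Rpph1, the RNA of the ribonuclease P that matures tRNAs, stood at 0.157 and 0.319 CPM in Ctrl RNA-seq and at 154 and 121 CPM in Ctrl Input (log2 fold change -9.31, SE 0.344, edgeR adjusted p = 0.000337). Vaultrc5, the RNA of vault particles, stood at 0.235 and 0.319 CPM against 129 and 61.6 CPM (log2 fold change -8.47). Rmrp, the RNA of the ribonuclease MRP, had 0 counts in both Ctrl RNA-seq libraries against 5.69 and 3.75 CPM. The 2 input libraries differed from each other for Vaultrc5, yet both lay far above the RNA-seq libraries.

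MicroRNA hairpins were mostly below the filter, with 7 of 1182 tested, 4 lower and 0 higher; the median was -2.66. The count lower was 1 without either Ctrl Input replicate, and 0 with the trend with length taken out. Counts at a hairpin gene are not counts of mature microRNA.

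Long noncoding RNAs did not share this direction. Of 7 nuclear long noncoding RNAs tested, 2 were higher and 1 lower, and of 8 snoRNA host transcripts 1 was higher and 0 lower, with medians of 0.34 and -0.46; over the 617 long noncoding RNAs tested, 105 were higher and 99 lower. Tug1 stood at 188 and 492 CPM in Ctrl RNA-seq against 34.0 and 33.6 CPM in Ctrl Input (log2 fold change 3.33, SE 0.459, edgeR adjusted p = 0.00261). Kcnq1ot1, the imprinted antisense transcript that silences its neighbours, stood at 24.3 and 71.7 CPM against 9.66 and 6.38 CPM (2.56, edgeR adjusted p = 0.0120), and reads of it cannot be told from reads of Kcnq1 on the other strand here. The replicates of Ctrl RNA-seq differed widely for both genes without overlapping Ctrl Input. Airn, another imprinted antisense transcript, was lower at 5.56 and 3.51 CPM against 21.6 and 28.8 CPM (-2.44). Malat1, a nuclear speckle transcript whose end is formed without a poly(A) tail, stood at 17.5 and 33.9 CPM against 19.4 and 20.9 CPM and did not pass the test (0.34, adjusted p = 0.452). The snoRNA host that was higher was Snhg10 (2.29), a call that did not hold without either Ctrl Input replicate.

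**Figure D2:**
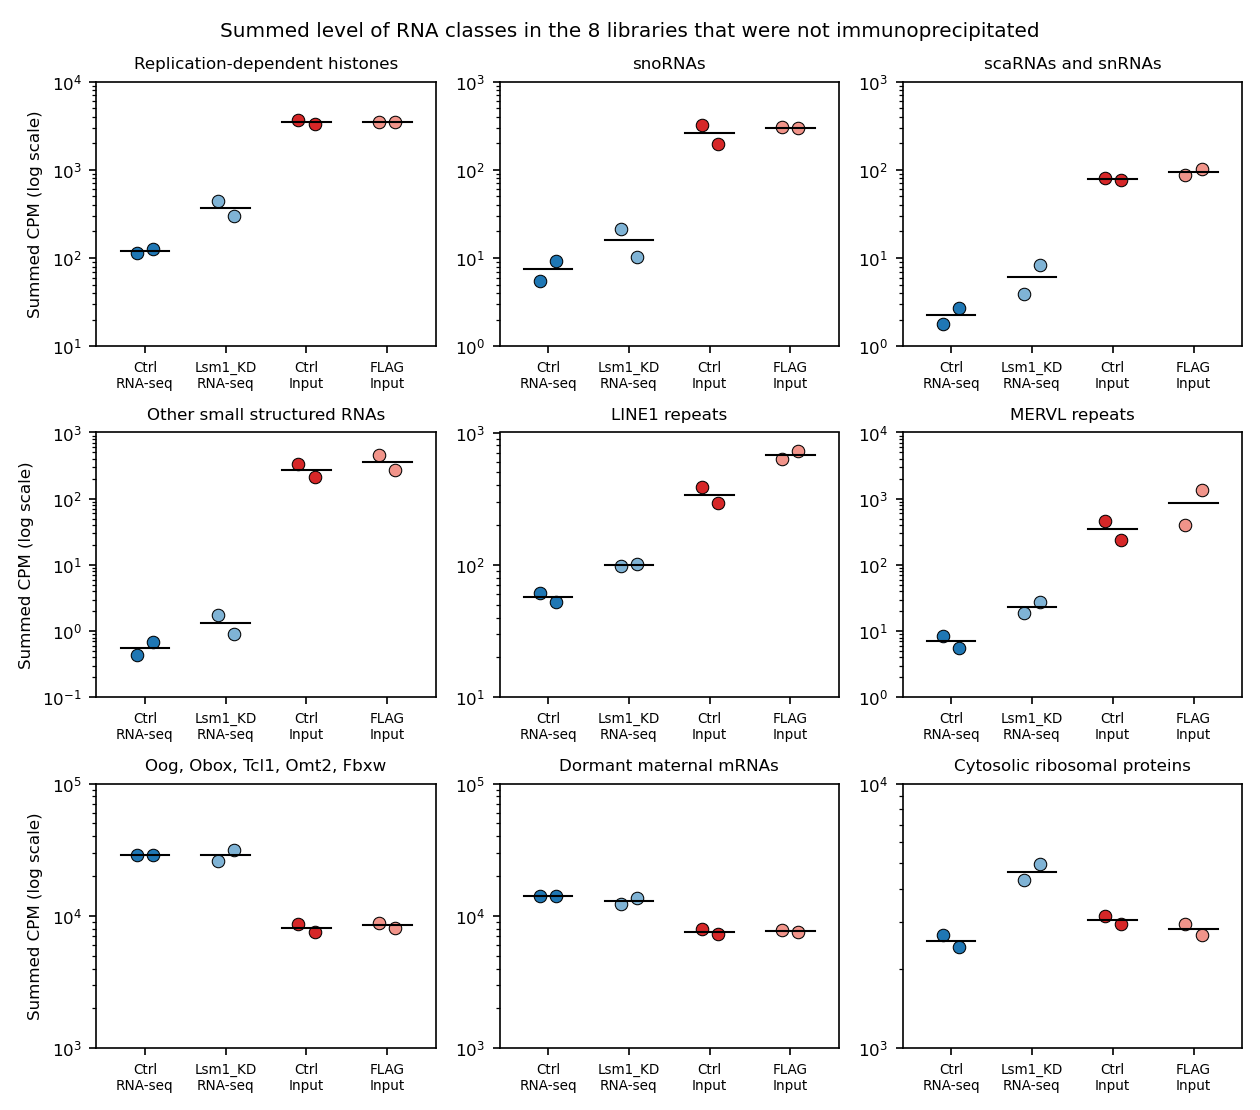
Summed raw CPM (y axis, log scale) of 9 RNA classes in the 8 libraries that were not immunoprecipitated; points are libraries and lines are means of 2. Histones, small structured RNAs, LINE1 and MERVL lay lower in the 4 RNA-seq libraries than in the 4 input libraries, and the oocyte multigene families and dormant maternal messages lay higher, while the cytosolic ribosomal proteins were mixed.

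Repeats split by family. Their sum was 1050 and 1020 raw CPM in Ctrl RNA-seq and 1930 and 1470 raw CPM in Ctrl Input. Of 187 repeats tested among 347 in the files, 22 were higher and 41 lower, and 29 of those 41 were LINE1, the autonomous retrotransposons that still move in the mouse. Reads of 1 repeat family can fall on others and on genes that hold copies, which the files do not resolve.

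LINE1 repeats summed to 61.8 and 52.1 raw CPM in Ctrl RNA-seq and to 389 and 291 raw CPM in Ctrl Input. Of 40 tested, 29 were lower and 0 higher by edgeR, or 33 and 0 at an unadjusted p under 0.05, with a median of -3.30; without Ctrl Input replicate 1 the number lower was 11, and with limma on log2(TPM + 1) it was 17. Of the 40, 2 had 0 counts in both Ctrl RNA-seq libraries and passed the filter through Ctrl Input alone, which fixed their direction. Of the other 38, 27 were lower. Some of the 38 were also near 0 in Ctrl RNA-seq, such as L1MdTf_I_L1 below, and passed through Ctrl Input alone. Their direction was fixed too, and their number was not counted. The young subfamilies L1MdA and L1MdTf, parts of which are still active, were among those lower. L1MdA_I stood at 1.96 and 1.27 CPM against 21.7 and 15.8 CPM (L1MdA_I_L1, log2 fold change -3.48, edgeR adjusted p = 0.00123). L1MdTf_III_L1 was listed with 0 counts in both Ctrl RNA-seq libraries against 22.8 and 16.5 CPM, at least 127-fold lower. L1MdTf_I_L1 stood at 0.235 and 0.319 CPM against 12.6 and 11 CPM (-5.45). Values differed among members: L1MdF_III_L1, chosen after its value was seen, had a log2 fold change of -6.01, LX2B_L1 stood at 16.5 and 9.88 CPM against 30.7 and 28.1 CPM (-1.14), and LX5b_L1 at 14.1 and 13.1 against 15.7 and 15.6 CPM did not pass (-0.20, adjusted p = 0.502).

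MERVL, the endogenous retrovirus that marks the start of zygotic transcription, stood at 9 and 6.06 CPM in Ctrl RNA-seq and at 407 and 208 CPM in Ctrl Input (MERVL_ERV3, log2 fold change -5.31, SE 0.421, edgeR adjusted p = 0.00051). The input replicates differed from each other, and both lay far above the RNA-seq libraries. The second set of libraries gave -4.85 for MERVL_ERV3, so both RNA-seq groups lay below both input groups.

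Other retroviral families showed no common direction. IAP repeats, among the most mutagenic in the mouse, gave 2 higher and 0 lower of 20 tested (median 0.20), and neither call held without either Ctrl Input replicate. ORR1 repeats gave 0 calls by edgeR in 5 tested (median 0.43), 0 at an unadjusted p under 0.05; with limma on log2(TPM + 1) 1 was higher. Without Ctrl replicate 1, 1 was lower, and without Ctrl replicate 2 there was 1 higher and 1 lower. Early transposon repeats gave 1 higher of 3 (median 0.26), a call lost without either Ctrl Input replicate or Ctrl replicate 1. Of 115 other long terminal repeats, 17 were higher and 11 lower (median -0.22), counts that fell to 4 and 0 without Ctrl Input replicate 1 and to 3 and 2 without replicate 2. Within the last group ERV2-9C_MM-I_ERV2, chosen after its value was seen, stood at 29.1 and 78.4 CPM in Ctrl RNA-seq with a log2 fold change of 5.76.

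B2, a short interspersed element copied by RNA polymerase III, was the 1 SINE tested of 4 and was higher, at 15.8 and 28.2 CPM against 4.75 and 3.61 CPM (B2_SINE2_tRNA, 2.38, SE 0.382, edgeR adjusted p = 0.00444). With limma on log2(TPM + 1), where more SINEs passed the filter, their median was -1.80 and B2 itself stayed higher (2.51). Major satellite (GSAT_MM_SAT) stood at 1.88 and 4.94 CPM against 7.47 and 4.79 CPM, overlapping between routes, and did not pass (-0.89, adjusted p = 0.245). Of 2 satellites tested among 7, the other, SQR4_MM_SAT, was higher (3.02), and its call was lost without either Ctrl Input replicate.

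**Figure D3:**
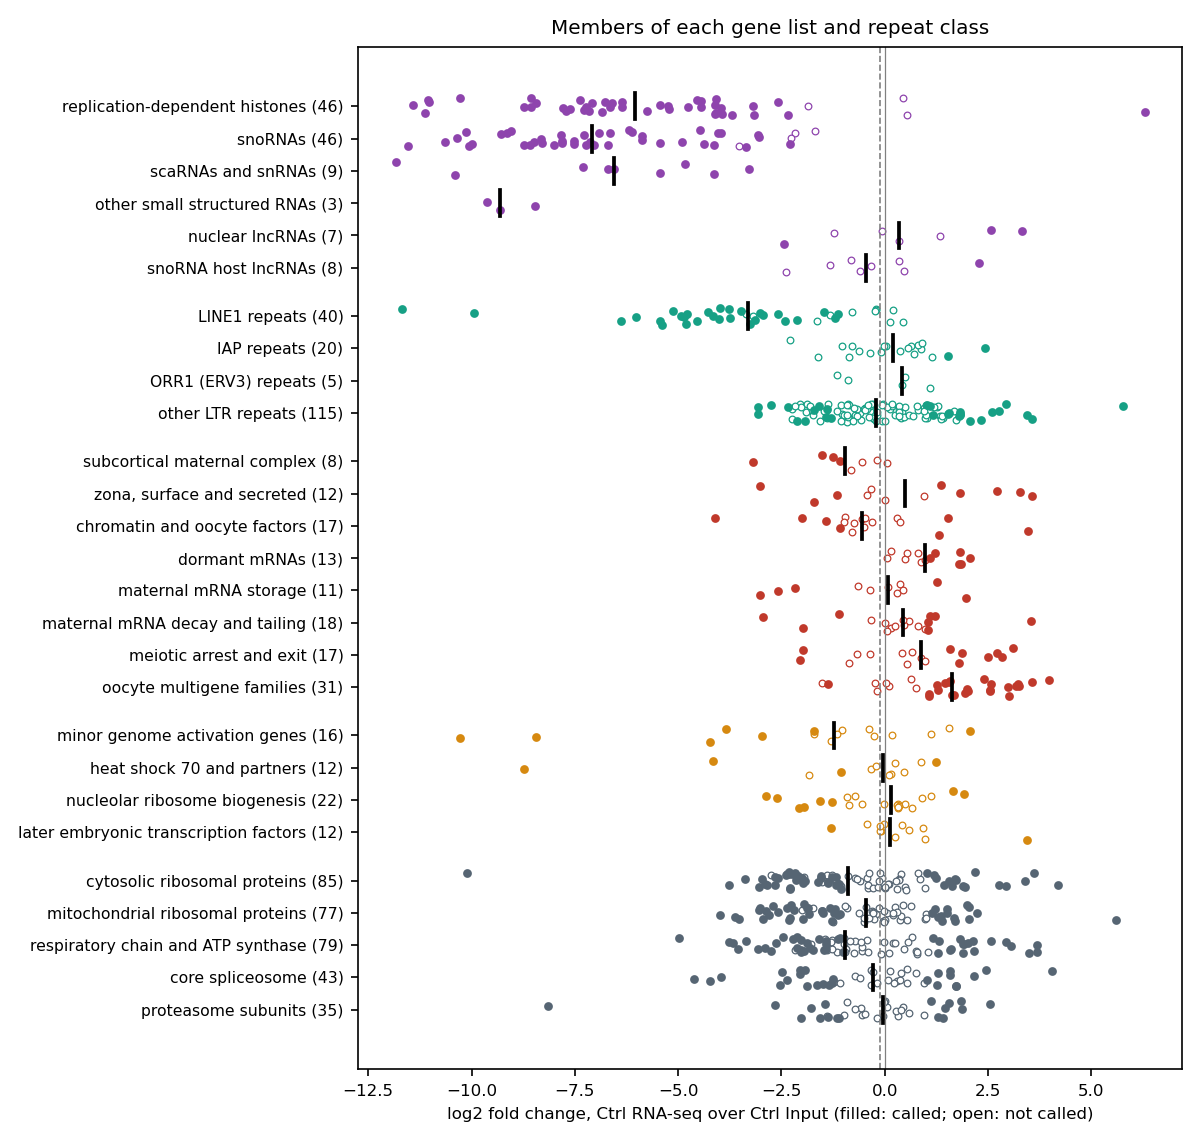
Log2 fold change of Ctrl RNA-seq over Ctrl Input (x axis) for each tested member of 27 gene lists and repeat classes, with the number tested in brackets; filled points passed the test, open points did not, black bars are list medians and the dashed line is the median of all features. Histones, snoRNAs, scaRNAs and snRNAs and LINE1 lay to the left, with medians of -6.05, -7.09, -6.56 and -3.30, and the oocyte multigene families to the right, with a median of 1.63.

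Maternal messages were called in both directions. For chromatin and oocyte factors, message storage and message decay, given below, the shares were near those of all features (17.7% higher and 21.4% lower). The families of oocyte-specific genes that lie in clusters (Oog, Obox, Tcl1, Omt2 and Fbxw) were the group most often higher: 23 of 31 tested were higher in Ctrl RNA-seq and 1 was lower, with a median of 1.63, and they summed to 28700 and 29000 raw CPM in Ctrl RNA-seq against 8760 and 7510 raw CPM in Ctrl Input. Of the 31, 7 shared over 50% of their 31-base words with other genes. In the second set of libraries 16 were higher and 4 lower.

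Omt2a, an oocyte-specific gene of unknown function, stood at 2146 and 2399 CPM in Ctrl RNA-seq against 181 and 107 CPM in Ctrl Input (log2 fold change 3.98, SE 0.291, edgeR adjusted p = 0.000435). Omt2b, its paralog, stood at 2674 and 3669 CPM against 326 and 211 CPM (3.56). Obox2, a homeobox gene, stood at 3848 and 4014 CPM against 533 and 446 CPM (3.01, SE 0.164, edgeR adjusted p = 0.000347). In each of these the 2 RNA-seq libraries lay above both input libraries. Tcl1, which activates the kinase AKT, stood at 4052 and 5077 CPM against 805 and 745 CPM (2.56). Fbxw26, from the cluster of F-box genes, was the member that was lower (-1.37).

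Dormant messages, which are stored with short tails and lengthened during meiosis, were higher in 6 of 13 and lower in 0 by edgeR, or 10 and 0 at an unadjusted p under 0.05, with a median of 0.98. Dazl, an RNA-binding translational activator, stood at 1183 and 1029 CPM against 294 and 237 CPM (2.06, SE 0.169, edgeR adjusted p = 0.00055). Slbp, whose product binds the histone stem-loop, stood at 3425 and 4510 CPM against 1101 and 1104 CPM (1.85, SE 0.182, edgeR adjusted p = 0.000875). Slbp message and histone messages thus lay on opposite sides. Ccnb1, the M-phase cyclin, stood at 2287 and 2345 CPM against 704 and 618 CPM (1.81), and Orc6, a subunit of the origin recognition complex, at 314 and 266 CPM against 86.6 and 77.9 CPM (1.82).

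Genes of meiotic arrest and exit gave 7 higher and 2 lower of 17, with a median of 0.87. Pttg1, the securin that guards chromosome cohesion, stood at 1847 and 1846 CPM against 230.5 and 196.5 CPM (3.11, SE 0.153, edgeR adjusted p = 0.000337). Mad2l1, of the spindle checkpoint, stood at 762 and 720 CPM against 121 and 103 CPM (2.73), and Aurkc, the kinase of meiotic spindles, at 699.6 and 672.5 CPM against 128 and 112 CPM (2.51). Pde3a, the phosphodiesterase that lowers cyclic AMP at resumption of meiosis, was lower, at 62.6 and 60.2 CPM against 233 and 274 CPM (-2.04), as was Cdc25b (-1.96), the phosphatase that starts M phase.

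Genes of the oocyte surface and its secreted factors gave 5 higher and 3 lower of 12 (median 0.48). Gdf9, the growth factor by which the oocyte instructs its follicle, stood at 3136 and 4624 CPM against 627 and 548.5 CPM (2.72, SE 0.232, edgeR adjusted p = 0.000595), and overlaps Uqcrq on the other strand. Oosp1, a secreted oocyte protein, stood at 3357 and 5196 CPM against 398 and 323 CPM (3.57), while Fgf8 was lower at 10.3 and 3.35 CPM against 57.4 and 58.9 CPM (-3.02). Bmp15, the partner of Gdf9, stood at 1060 and 1009 CPM against 1492 and 1290 CPM and did not pass the call (-0.43, adjusted p = 0.0502).

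The subcortical maternal complex, a scaffold under the zygote membrane that the first cleavages need, gave 0 higher and 4 lower of 8 by edgeR (median -0.95; 0 and 6 at an unadjusted p under 0.05), or 2 lower with limma on log2(TPM + 1). Nlrp5 stood at 353 and 423 CPM against 1087 and 1138 CPM (-1.52, SE 0.148, edgeR adjusted p = 0.000856), Ooep at 189 and 180 CPM against 440 and 433 CPM (-1.24), and Padi6 at 404 and 418 CPM against 834 and 910.5 CPM (-1.08). Khdc3 was lower as well (-3.19). The routes did not overlap for these 4, and Zbed3 at 11580 and 14360 CPM against 13090 and 11990 CPM did. Summed over the complex, levels were 12800 and 14200 raw CPM in Ctrl RNA-seq against 20300 and 19100 raw CPM in Ctrl Input. The sum lay on the other side in the second set of libraries. It was 30700 and 33500 raw CPM in Lsm1_KD RNA-seq against 19300 raw CPM in each FLAG Input library. By gene, 1 of 8 was higher and 3 lower there.

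Maternal chromatin factors and oocyte transcription factors gave 3 higher and 4 lower of 17 (median -0.55), shares close to those of all features. H1f8, the oocyte linker histone, stood at 3767 and 6320 CPM against 534 and 378 CPM (3.47, SE 0.324, edgeR adjusted p = 0.00075). H1f8 and the replication-dependent linker histone H1f1 above lay on opposite sides, and the cause was not tested. Dppa3, which protects maternal methylation, stood at 1784 and 1560 CPM against 732.5 and 617.5 CPM (1.31). Zfp57, which keeps imprints, was lower at 769 and 733.5 CPM against 3121 and 2915 CPM (-2.01, SE 0.139, edgeR adjusted p = 0.00041), as was Tet3, the dioxygenase that oxidises methylcytosine in the zygote, at 1322 and 1426 CPM against 2827 and 2941 CPM (-1.07).

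Genes of message storage gave 2 higher and 3 lower of 11 (median 0.09, or -0.16 without Ctrl replicate 2), near the shares of all features for so few genes. Ybx2, the main RNA-packaging protein of germ cells, stood at 48.5 and 36 CPM against 342 and 344 CPM (-3.01, SE 0.183, edgeR adjusted p = 0.000379), and Eif4e1b, the oocyte cap-binding protein, at 182.5 and 189 CPM against 808 and 857 CPM (-2.16). Zar1, which holds messages on mitochondria, was higher at 1143 and 991.5 CPM against 276 and 270 CPM (1.97), in contrast to its paralog Zar1l (-2.59).

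Genes of message decay and tailing, the machinery to which LSM1 belongs, gave 5 higher and 3 lower of 18 (median 0.45), or 3 higher without Ctrl Input replicate 2. Lsm1 itself was higher (3.55, SE 0.145, edgeR adjusted p = 0.000337). Dcp1a, of the decapping complex that acts after LSM1 binds, stood at 1488 and 1661 CPM against 702 and 764 CPM (1.10). Btg4, the adaptor that brings the CCR4-NOT deadenylase to maternal messages, stood at 3093 and 3582 CPM against 1789 and 1584 CPM with a log2 fold change of 0.98, just under the threshold on size. Cnot7, the deadenylase subunit that Btg4 binds, was higher (1.22), whereas the subunits Cnot1 (-1.10) and Cnot3 (-1.98) were lower.

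Genes of minor genome activation were mostly undetected or low. Of 32 listed, 16 were tested, 1 was higher and 6 lower, with a median of -1.22. The number lower was 2 without Ctrl Input replicate 1 and 12 without Ctrl RNA-seq replicate 2. Of the 16, 2 had 0 counts in both Ctrl RNA-seq libraries and passed the filter through Ctrl Input alone, which fixed their direction. Of the other 14, 4 were lower, and members near 0 were not counted. Usp17lc, a deubiquitinase gene of the MERVL-linked set, was at 0 counts in both Ctrl RNA-seq libraries and at 8.24 and 6.52 CPM in Ctrl Input. Zscan4f, which marks brief bursts of such transcription, stood at 1.49 and 1.12 CPM against 12.3 and 8.57 CPM (-2.97, SE 0.427, edgeR adjusted p = 0.00303), a call that was lost without Ctrl Input replicate 1. It shared 93.3% of its 31-base words with other genes, and 7 of the 16 shared over 50%. Tcstv1, from the same wave, was higher at 63.7 and 49.7 CPM against 12.6 and 14.7 CPM (2.06). Arg2, an arginase, was lower at 37.7 and 36.2 CPM against 127 and 117 CPM (-1.72).

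Heat shock genes, some of which are read first by the new genome, gave 1 higher and 3 lower of 12 (median -0.05, or 0.34 with limma on log2(TPM + 1)). Among the lower genes, Hspa1a and Hspa1b were at or near 0 in Ctrl RNA-seq and passed the filter through Ctrl Input alone, which fixed their direction. Hspa1a had 0 counts in both Ctrl RNA-seq libraries against 3.08 and 1.94 CPM, a call lost without Ctrl Input replicate 1, and Hspa1b stood at 0.157 and 1.27 CPM against 12.6 and 8.67 CPM (-4.15); the pair shares most of its sequence (67.7% of the words of Hspa1a). Nucleolar genes of ribosome biogenesis, from the major wave, gave 2 higher and 6 lower of 22 (median 0.14): Dkc1, the pseudouridine synthase that works with H/ACA snoRNAs, was higher at 455 and 433 CPM against 109 and 127 CPM (1.91), and fibrillarin, Fbl, the methylase that works with C/D snoRNAs, was lower at 10.5 and 9.08 CPM against 31.5 and 26.4 CPM (-1.56). Later embryonic transcription factors gave 1 higher and 1 lower of 12 (median 0.12, or -0.55 without Ctrl replicate 1), the higher being Nanog at 2.11 and 7.01 CPM against 0.361 and 0.451 CPM, a call that did not hold without either Ctrl Input replicate.

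Housekeeping complexes were called in both directions within the same complex. Cytosolic ribosomal proteins gave 16 higher and 34 lower of 85 (median -0.89), mitochondrial ribosomal proteins 14 and 29 of 77 (median -0.45), the respiratory chain and ATP synthase 18 and 28 of 79 (median -0.97), the core spliceosome 10 and 15 of 43 (median -0.29), and proteasome subunits 8 and 9 of 35 (median -0.05). With limma on log2(TPM + 1) the medians of the spliceosome and the proteasome were 0.07 and 0.28. Without Ctrl Input replicate 1 and 2 the lower calls were 15 and 16 for mitochondrial ribosomal proteins and 14 and 13 for the respiratory chain; the lower calls of the proteasome were 4 without replicate 1.

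Rps2, a protein of the small ribosomal subunit, stood at 158 and 216 CPM in Ctrl RNA-seq against 10.6 and 9.81 CPM in Ctrl Input (4.19, SE 0.214, edgeR adjusted p = 0.000337). Rpl23a, of the large subunit, stood at 6.18 and 5.58 CPM against 89.9 and 71.1 CPM (-3.76, SE 0.225, edgeR adjusted p = 0.000371). Subunits of 1 particle that are used in equal number thus differed in opposite directions. Cox8a, of cytochrome c oxidase, was higher at 349.5 and 356 CPM against 29.4 and 25.3 CPM (3.69), and Sf3a2, of the U2 particle, lower at 3.13 and 3.51 CPM against 63.8 and 60.5 CPM (-4.24), while Snrpg, of the Sm ring, was higher at 217.5 and 242 CPM against 16 and 11.7 CPM (4.04).

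Markers of other cells were scarce in both routes. Cumulus and granulosa markers had counts for 7 and 5 of 18 in Ctrl RNA-seq and 13 and 11 in Ctrl Input, summing to 15.3 and 21.4 against 21.2 and 20.6 raw CPM, and 1 of 5 tested, Has2, was lower (-4.38, at 0.0783 and 0 against 1.08 and 1.28 CPM). Sperm markers summed to 3.65 and 4.46 against 11.1 and 11.4 raw CPM, and 1 of 4 tested, the protamine Prm2, was lower (-1.49). Calls of Has2 and Prm2 were both lost without either Ctrl Input replicate. Blood markers summed to 2.15 and 7.98 against 2.60 and 1.48 raw CPM, and oviduct markers to 111 and 142 against 219 and 185 raw CPM, nearly all of it Cdh1, which the zygote itself uses; 0 of 2 and 0 of 3 tested were called by edgeR, with 0 at an unadjusted p under 0.05, while DESeq2 called 1 blood marker higher among 7 tested. The part of other cells in the results was not tested.

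Several of the features with the largest fold changes were near copies of other genes. Rsc1a1 stood at 355 and 451 CPM in Ctrl RNA-seq and at 0 counts in both Ctrl Input libraries, at least 8360-fold higher, and Gm10052 at 0 counts in Ctrl RNA-seq and at 88.4 and 99.6 CPM in Ctrl Input, at least 593-fold lower. Rsc1a1 shares 96.1% of its 31-base words with Ddi2, on whose transcript it lies, and the sum of both was 446 CPM or more in Ctrl RNA-seq against 332 and 374 CPM. Gm10052 shares 95.4% with Hnrnpa1, and their sum was 123 and 92.6 CPM against 139 and 156 CPM. Hmga1b, at least 1410-fold higher, shares 94.2% with Hmga1, and their sum lay on the other side, at 80.6 and 77.3 CPM against 172 and 176 CPM. Oaz1-ps, at least 6590-fold higher, shares 96.6% with Oaz1, and their sum remained higher, at 1265 and 1685 CPM against 102 and 71.8 CPM. Gm38431, at least 228-fold lower, shares 77.4% with Raver1, and summed with Raver1 and Fdx2 it came to 49.6 and 77.5 CPM against 170 and 152 CPM. The partners were chosen after these values were seen.

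Other large differences rested on genes with little shared sequence. Dusp3, a phosphatase of MAP kinases with 1.17% of words shared, stood at 654.5 and 1384 CPM against 0.0833 and 0.243 CPM (12.63 on the log2 scale, SE 0.658, edgeR adjusted p = 0.000337). Polg2, the accessory subunit of the mitochondrial DNA polymerase, stood at 357 and 626 CPM against 0.444 and 0.832 CPM (9.61), and Mrpl19 at 26.4 and 63.9 CPM against 1.03 and 0.798 CPM (5.60). Frat1, a regulator of WNT signalling, stood at 58.0 and 184 CPM against 0.111 and 0.0694 CPM (10.26). The RNA-seq replicates of these genes differed from each other, and both lay far above the input libraries. Polg2 overlaps Milr1 and Mrpl19 overlaps Gcfc2 on the other strand.

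The shortest features and those with high GC content were more often lower. Of 62 features up to 150 bases, 90.3% were lower and 0% higher (median -7.19, or -3.99 at the bounds), though 29 of them had 0 counts in both Ctrl RNA-seq libraries. These passed the filter through Ctrl Input alone, as did some others near 0, which fixed their direction. Of 13 between 150 and 300 bases 69.2% were lower, and of 165 between 300 and 500 bases 32.7% were lower (median -0.87); beyond 500 bases the median stayed between -0.24 and -0.04. Among protein-coding genes the median ran from 0.42 in the quintile with the lowest GC content through 0.10, -0.16 and -0.52 to -0.85 in the one with the highest, with 23.9% higher and 5.57% lower at the low end and 13.1% and 35.9% at the high end. Across 12199 protein-coding genes, which are not independent and share the same 4 libraries, log2 fold change and GC content had a Pearson r of -0.25 and a Spearman rho of -0.275. Length of 12441 protein-coding genes had hardly any correlation with log2 fold change, at 0.0235 and -0.0193, but differences appeared by bin. The 93 such genes up to 500 bases had a median of -1.85, with 50.5% lower and 19.4% higher. That bin includes many of the histone genes given above, and the bins up to 300 bases include the snoRNAs and snRNAs. The short bins are thus no separate result from those groups, and length apart from RNA class was not tested. The share higher was 24.5% between 500 and 1000 bases and 8.75% beyond 8000 bases. With the GC trend taken out, 2704 features were higher and 2247 lower, and with the length trend taken out 2900 and 2460.

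**Figure D4:**
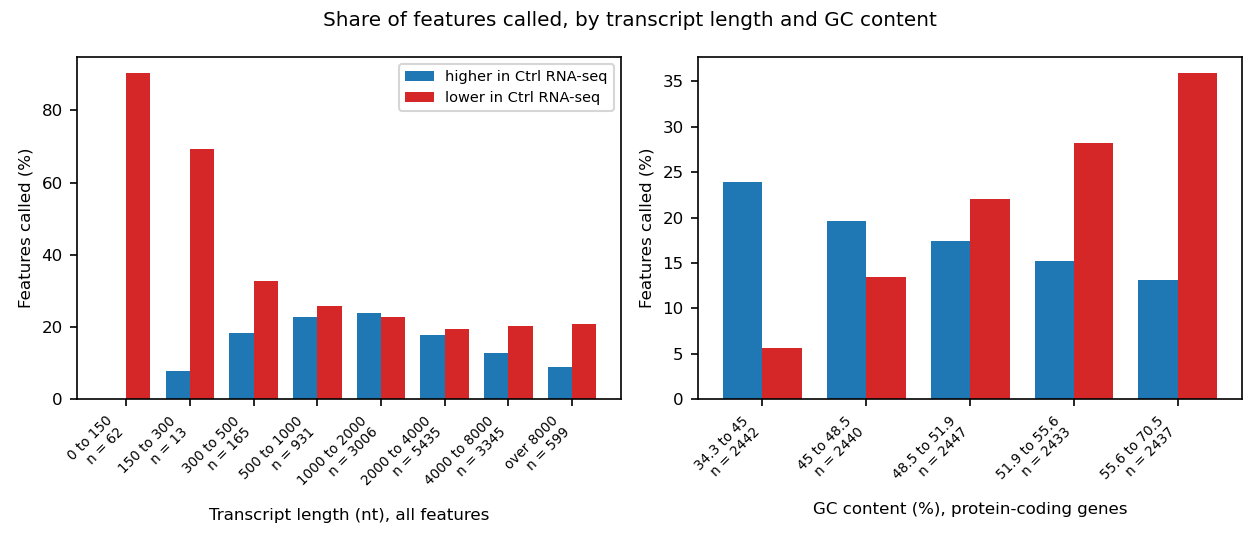
Share of features called higher (blue) or lower (red) in Ctrl RNA-seq (y axis, percent), by transcript length of all features (left) and by quintiles of GC content of protein-coding genes (right), with the number in each bin. Features up to 150 bases were lower in 90.3% of cases, and the share lower climbed with GC content from 5.57% to 35.9%.

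Ctrl Input held more kinds of RNA at equal depth. After each library was thinned to about the depth of the shallowest, 13838 and 14101 genes and repeats had at least 1 count in Ctrl RNA-seq and 17014 and 16726 in Ctrl Input, and 11795 and 11759 against 13182 and 12921 had at least 5. Genes on overlapping opposite strands made up 20.8% of higher, 23.1% of lower and 22.5% of tested genes.

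The same pair of routes was compared in libraries that the first comparison did not use, Lsm1_KD RNA-seq over FLAG Input, where the treatments also differ. There 2148 of 13822 features were higher (15.5%) and 2535 lower (18.3%). Of 13192 features tested in both comparisons, 1473 were higher in both, which is 62.8% of those higher in the first and 71.1% of those higher in the second. Lower in both were 1571, or 55.7% and 64.9%, and 9 were called in opposite directions. By group, the counts that follow are for members tested in both comparisons. Histones gave 1 higher and 36 lower of 42, and snoRNAs 0 and 35 of 45. The scaRNAs and snRNAs gave 0 and 9 of 9, and LINE1 0 and 28 of 39. Here too, members at or near 0 in RNA-seq, such as Snord15b (-11.4), passed the filter through the input alone. Their direction was thereby fixed, and their number was not counted. Ribosomal proteins gave 26 higher and 13 lower of 85 (median 0.00), mitochondrial ribosomal proteins 21 and 6 of 77, and the respiratory chain 25 and 9 of 79, so in these groups higher calls outnumbered lower ones, unlike in Ctrl. A test of the difference between both comparisons called 633 of 14630 features (4.33%), a count that was 96, 127, 238, 149 and 338 without Ctrl Input 1, Ctrl Input 2, Lsm1_KD 2, FLAG Input 1 and FLAG Input 2, and 406 with the replicate block. In it, 20 of 86 ribosomal protein genes tested had a lower and 1 a higher log2 fold change in the Ctrl comparison.

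**Figure D5:**
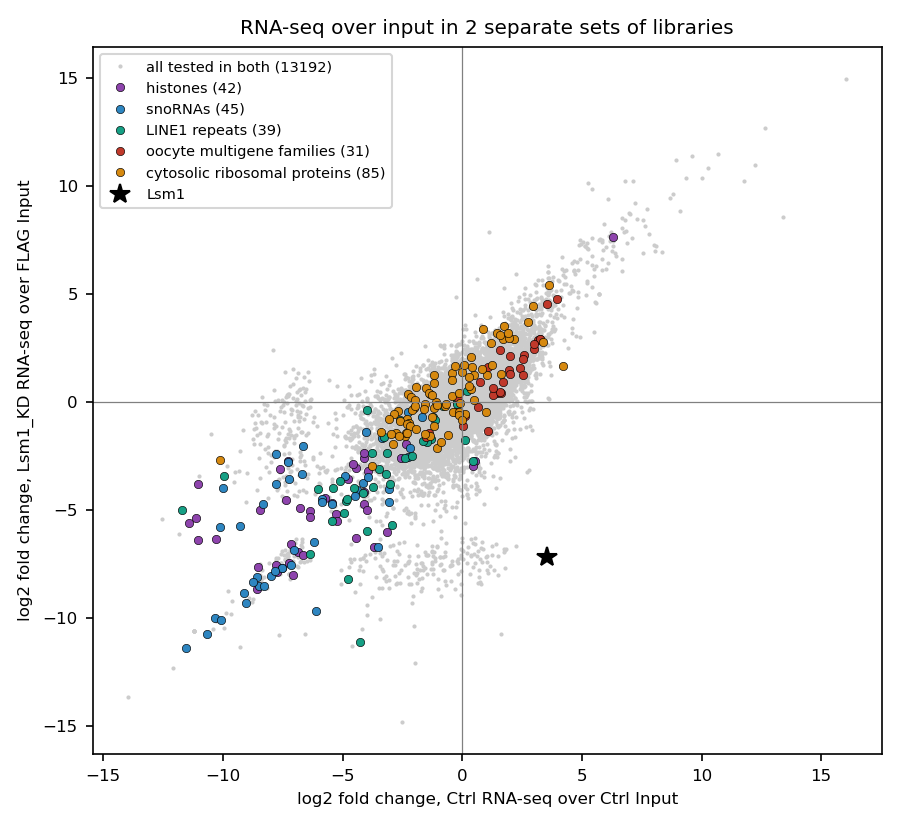
Log2 fold change of Ctrl RNA-seq over Ctrl Input (x axis) and of Lsm1_KD RNA-seq over FLAG Input (y axis) for 13192 features tested in both, with 5 groups in colour and Lsm1 as a star. Histones, snoRNAs and LINE1 lay low on both axes and the oocyte multigene families mostly high on both; Lsm1, injected in FLAG Input, was at 3.55 and -7.16.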

How the data were processed

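Per the labels, the authors trimmed reads with Trimmomatic (the paper's methods name Cutadapt), checked them with FastQC and quantified them with Salmon on mm10, and the paper's methods name Salmon too; the labels give no versions. The deposited tables give estimated counts and TPM for 37366 RefSeq transcripts and 347 Repbase repeats in each library. Here estimated counts were summed by gene symbol (37067 transcripts matched), rounded to whole numbers, and tested with edgeR 4.0.16 in R 4.3.3 (TMM, filterByExpr, quasi-likelihood test, Benjamini-Hochberg over the features tested), 2 libraries against 2. The authors' deposited TPM values served only for an alternative with limma 3.58.1 (pseudocount 1), and DESeq2 1.42.0 was another. CPM is TMM-normalised unless called raw, in which case it is scaled by the library's own total.

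The members, the 29 gene lists, the 9 repeat classes and the named-gene rule were chosen with earlier results of these data known. Genes were named by these rules: at most 12 called features on each side, ordered by size of change, if groups were apart and the higher one averaged 50 counts; the up to 4 members of each list with the smallest adjusted p or else the 2 most abundant, satellites, MERVL and Lsm1; other members given with values were chosen after their values were seen. Patterns that assign repeats to classes were adjusted to the repeat names in the files. Shared sequence is the share of a gene's 31-base words found in any other gene. Opposite-strand reads were taken as not separable, since the strand setting of the quantification is not given in the sources used here. Replicate numbers did not pair the libraries (correlation of deviations 0.031, from 2 pairs). The stem-loop searched was the commonest perfect stem in the ends of the listed histone transcripts. The scripts were tested on simulated data. The other 4 libraries, from immunoprecipitated RNA, were not used. A further short RNA is not reported here.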

Additional observations from a re-analysis of the deposited data

Results flagged for a closer look

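The interaction test in edgeR, over the 8 libraries not immunoprecipitated, asked whether Ctrl RNA-seq over Ctrl Input differed from Lsm1_KD RNA-seq over FLAG Input. It called 633 of 14630 features (4.33%), 219 with a higher and 414 with a lower log2 fold change in the Ctrl comparison. The count was 96, 127, 238, 149 and 338 without Ctrl Input 1, Ctrl Input 2, Lsm1_KD 2, FLAG Input 1 and FLAG Input 2, and 406 with the replicate block, so the calls by group and gene below rest on having each of these libraries. Cytosolic ribosomal proteins gave 1 higher and 20 lower of 86, the respiratory chain 2 and 17 of 80, the core spliceosome 1 and 10 of 43, mitochondrial ribosomal proteins 0 and 6 of 77, histones 0 and 4 of 51, and the oocyte multigene families 4 and 0 of 31. The treatments (Lsm1 siRNA, and FLAG-tagged Lsm1 mRNA) enter this difference together and cannot be told apart.

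Of named features, Lsm1 differed by 10.7 on the log2 scale, and FLAG Input is the group injected with tagged Lsm1 mRNA. The values that follow are differences, the log2 fold change in the Ctrl comparison less that in the other, and not the fold changes themselves. The difference was negative for Gm38431 (-6.99), L1MdTf_III_L1 (-6.61), Sf3a2 (-1.93), U2af2 (-1.86), Ybx2 (-1.80), Rps27l (-1.80), Ooep (-1.74), Snrpg (-1.56), Oosp3 (-1.54), Mrpl48 (-1.54), Rps15a (-1.47), H1f1 (-1.39), Mir6236 (-1.30), H3c7 (-1.29) and Cnot3 (-1.03). It was positive for Rps2 (2.56), Tcstv1 (1.97), Atp5c1 (1.31), Dazl (1.16) and Ndufa10 (1.08). Gm38431 and L1MdTf_III_L1 were at 0 counts in both Ctrl RNA-seq libraries, so their differences depend on the prior count and are no bounds. Ooep had a log2 fold change of -1.24 in the Ctrl comparison and 0.50 in the other, while Ybx2 was lower in both (-3.01 and -1.21).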

How the results depend on the processing

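Of 133 named features under the alternatives, 2039 values kept direction and side of the threshold, 61 fell short of it, 4 newly passed it and 9 turned sign. The turns were Mir6236 (0.0467) and Mir6516 (0.13) with the length trend taken out, Cd68 without Ctrl replicate 1 (-0.46), without Ctrl Input replicate 2 (-0.32) and thinned (-0.036), Krt8 without Ctrl replicate 2 (0.0357), and Cdh1 with limma on TPM (0.0914), with the GC trend taken out (0.24) and with that and the replicate block (0.22); the cause was not tested. Leaving out 1 library, Cd68 ran from -0.463 to 0.901 and Krt8 from -9.71 to 0.0357. Leaving out 1 library, the higher count ran from 1643 to 2931 and the lower from 1567 to 4325, with 1615 and 1567 lower without Ctrl Input replicate 1 and 2; the lower count of the second comparison was 1580 and 1593 without FLAG Input replicate 1 and 2 and reached 3401 without Lsm1_KD replicate 1. The 633 features that differed between the comparisons became 1010 with no filter, 1306 with DESeq2, 406 with the replicate block, and from 96 to 853 with 1 library left out: 96, 127, 238, 149 and 338 without Ctrl Input 1, Ctrl Input 2, Lsm1_KD 2, FLAG Input 1 and FLAG Input 2, and 853 without Lsm1_KD 1. The replicate block gave 2193 higher and 2591 lower in Ctrl, but replicate numbers are shared names only. The share of calls that were higher (45.3%) became 60.9% with limma on log2(TPM + 1) and 56.0% with GC trend and block; the median of all features was then 0.26 and -0.04, and 0.10 with the length trend taken out (54.1%). DESeq2 gave 2412 higher and 2648 lower, and single transcripts 2597 and 3644. The GC trend fits were added after seeing the data. Thinned to equal depth, 2283 features were higher and 2541 lower.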
